A study of Mus musculus with 8 samples.

Results

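Ubiquitin-specific proteases (USPs) were followed in an RNA immunoprecipitation sequencing study of the RNA-binding protein CPEB2 in mouse mammary cells. The members were all 3' untranslated region (3' UTR) rows whose gene symbol is Usp followed by a digit, which gave 54 rows of 54 genes among 20586 rows. One of them, Usp6nl, encodes a GTPase-activating protein for Rab proteins and not a protease, and it was kept because its symbol matches. The grouping by role used here put Usp39, Usp50, Usp53 and Usp54 beside Usp6nl, as catalytically inactive or not a protease. Enzyme activity was not tested. Immunoprecipitates made with an antibody against CPEB2 (IP) and the matching Input RNA were sequenced in 4 groups of 2 libraries: KO IP, KO Input, WT IP and WT Input. KO denotes Cpeb2 knockout mice and WT wild-type mice, all of the strain given as C57BL/6J 129, and all cells were a freshly isolated, epithelium-enriched fraction of mammary gland that was neither cultured nor treated. The sources used here give neither the deleted part of Cpeb2 nor the age of the mice. Each group holds 1 library of RIP experiment 2, from cell preparation 3, and 1 of RIP experiment 3, from preparation 4, so that libraries share experiments across groups, and whether the authors' test took the experiment into account is unknown here. The labels number these preparations within each genotype without saying that they came from different animals, so standard errors and p-values cover only the spread among the libraries at hand, which may be technical.

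USPs are the largest family of deubiquitinating enzymes. They are cysteine proteases that cut ubiquitin from proteins, and by doing so rescue substrates from the proteasome, change the traffic of receptors, or remove ubiquitin marks from histones and DNA repair factors. CPEB2 binds U-rich cytoplasmic polyadenylation elements in 3' UTRs and regulates the poly(A) tail and translation of the mRNAs that carry them, so the question put to each USP was whether its 3' UTR came down with the antibody more in WT than in KO.

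For each row and group the authors deposited 1 value on a log2 scale, close to that of a normalized count with 1 added. All group values below are these authors' values, and an IP minus Input difference is a difference of 2 of them, with no error. The interaction is the authors' estimate of IP minus Input in WT minus the same in KO, on the log2 scale, so that a positive value means more recovery over Input in WT. It is given with its standard error (SE) and an adjusted p from the authors' Wald test over 5327 rows, and 0.05 is the threshold. Per the labels, poly(A) RNA was selected for Input only, so every IP minus Input difference also holds the difference between selected and unselected RNA. Depth per library is unknown here.

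The row of the knocked-out gene had values of 7.43 in KO IP and 5.98 in KO Input, against 9.64 in WT IP and 6.11 in WT Input. The Cpeb2 3' UTR was thus still present in KO Input, and this row does not check the genotype labels. The authors' deposited table gave this row an interaction of 2.12 ± 0.45 (SE; Wald test, adjusted p = 0.00119) and its paralogue Cpeb3 one of 2.39 ± 0.71 (Wald test, adjusted p = 0.0377). All 8 epithelial markers were above 0 in both Inputs, with summed normalized counts of 1391 in KO Input and 1449 in WT Input. Markers of other cell types were above 0 too. Endothelial markers (6 of 6 above 0) summed to 1475 in KO Input and 1279 in WT Input, and fibroblast markers (6 of 6) to 2786 in KO Input and 2385 in WT Input. Leukocyte markers (6 of 6) summed to 260.04 in KO Input and 197 in WT Input, adipocyte markers (5 of 5) to 108 in each, and erythroid markers (3 of 3) to 94.3 in KO Input and 66.5 in WT Input. In the immunoprecipitates epithelial markers summed to 1689 in KO IP and 1835 in WT IP, and adipocyte markers to 123 in KO IP and 117 in WT IP. Endothelial markers summed to 986 in KO IP and 2036 in WT IP. Fibroblast markers summed to 3108 in KO IP and 2242 in WT IP, leukocyte markers to 228 in KO IP and 116 in WT IP, and erythroid markers to 19.7 in KO IP and 7.66 in WT IP. The part of these cells in the USP values was not tested.

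No USP row passed the threshold in either direction. Of the 54 members 21 had the mean normalized count of about 42.9 that the authors' adjustment needed, 28 had a p without an adjusted p, and 5 had no count. Among the 21, by the authors' deposited table, 0 rose in WT, against 2.25% of all tested rows (120 of 5327), and 0 fell in WT, against 0% (Wald test). At an unadjusted p under 0.05, 4 of the 21 were higher in WT (Usp2, Usp46, Usp7 and Usp6nl), where 12.5% of all tested rows were, and 0 were lower, where 1.09% were, in the authors' deposited table. The interaction of the 21 ran from -0.60 to 1.22 with a median of 0.13, and over all tested rows the median was 0.23. Above 0 were 12 of the 21, beside 65.1% of all tested rows.

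The table's precision limits what could have been called, as far as its standard errors hold. Members without an adjusted p are not covered here. The standard errors of the 21 ran from 0.38 to 0.61 in the authors' deposited table, where called rows had Wald scores of 3.26 or more. At the members' median SE an interaction of 1.56 would have been needed, which is below 1.74, the median of the 120 called rows. Over the 21 the interaction needed ran from 1.25 to 1.98. The 95% interval, from the SE and the normal distribution, ended below 1.74 for 17 of the 21 and reached it for 4, which were Usp46, Usp2, Usp14 and Usp37. For these 4 the interval leaves room for a difference of that size. The 1.74 comes from rows chosen for passing in these same data, and such a choice favours high estimates. Called rows began at 1.10, and the intervals of Usp7, Usp6nl, Usp31, Usp25 and Usp36 also reached that value. An interval that ends below 1.74 therefore does not exclude a difference of called size.

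**Figure D1:**
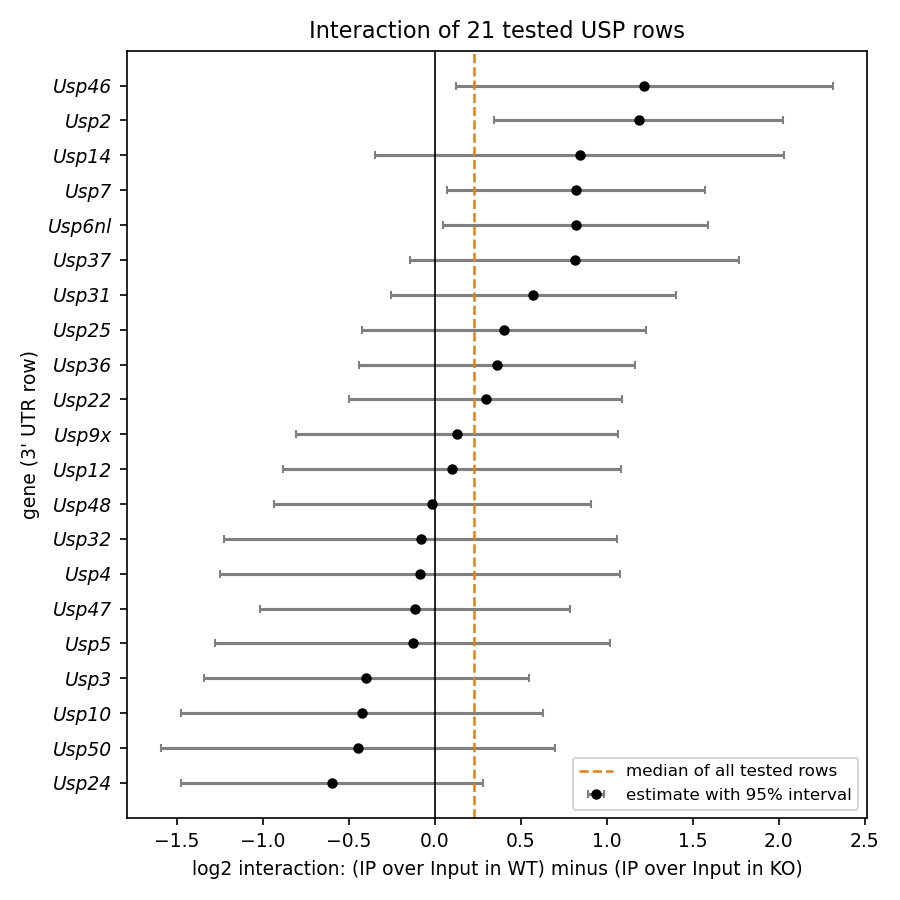
Log2 interaction of the 21 tested USP rows (horizontal axis, IP over Input in WT minus the same in KO), with points for the authors' estimates and bars for 95% intervals, sorted by estimate. The estimates run from -0.60 for Usp24 to 1.22 for Usp46, the intervals of 17 rows include 0, and the dashed line marks the median of all tested rows, 0.23.

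Usp2, which removes ubiquitin from substrates of the p53 and MDM2 axis, from cyclin D1 and from the circadian clock, had the smallest p of the family. Its 3' UTR lies at chromosome 9, 44093862 to 44095627 (mm10). Values were 5.73 in KO IP and 8.89 in KO Input, against 6.62 in WT IP and 8.61 in WT Input. The row lay far below Input in both genotypes, with IP minus Input of -3.16 in KO and -1.98 in WT, and was nearer to Input in WT. Its interaction, by the authors' deposited table, was 1.19 ± 0.43, with a 95% interval from 0.35 to 2.02 (Wald test, adjusted p = 0.141). Of the genotype difference, 0.89 (WT minus KO) lay in IP and -0.29 in Input. Usp2 also had the highest Input level per length of the family, as described below.

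Usp7, the protease of MDM2 and p53 also known as HAUSP, lies at chromosome 16, 8689600 to 8690886. It had values of 7.54 in KO IP and 8.32 in KO Input, against 8.07 in WT IP and 8.04 in WT Input. IP was thus below Input in KO and level with it in WT. The interaction, by the authors' deposited table, was 0.82 ± 0.38 (Wald test, adjusted p = 0.311). Usp10, which acts on p53 and is a partner of the stress granule protein G3BP1, lay on the other side of 0, with 5.82 in KO IP and 6.41 in KO Input, against 5.33 in WT IP and 6.33 in WT Input. In the authors' deposited table its interaction was -0.42 ± 0.54 (Wald test, adjusted p = 0.790).

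Usp46 and Usp12 are close paralogues that both need the activator UAF1 (Wdr48). The Usp46 row, at chromosome 5, 73998463 to 74002035, had 5.91 in KO IP and 5.54 in KO Input, against 6.99 in WT IP and 5.44 in WT Input. It was the only tested USP whose WT value exceeded the KO value by at least 1 in IP, and WT minus KO in Input was -0.10. The authors' deposited table gave Usp46 the largest interaction of the 21, 1.22 ± 0.56 (Wald test, adjusted p = 0.304). Usp12 had 6.71 in KO IP and 5.47 in KO Input, against 6.75 in WT IP and 5.41 in WT Input. Its recovery over Input was nearly equal in both genotypes, and the authors' deposited table gave 0.10 ± 0.50 (adjusted Wald p = 0.952). The difference between the paralogues was not tested, and their 95% intervals overlap. Wdr48 itself had an interaction of -0.36 ± 0.55 by the authors' deposited table (adjusted Wald p = 0.834).

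Usp37 and Usp1 were grouped with DNA repair and replication. Usp37, a regulator of cyclin A and of S phase, had 6.69 in KO IP and 6.84 in KO Input, against 7.11 in WT IP and 6.47 in WT Input. Its interaction, by the authors' deposited table, was 0.81 ± 0.49 (Wald test, adjusted p = 0.486), of which 0.42 lay in IP and -0.38 in Input. Usp1, the protease of FANCD2 and PCNA, had too few counts for an adjusted p. Its values were 4.28 in KO IP and 4.17 in KO Input, against 5.26 in WT IP and 4.42 in WT Input. The authors' deposited table gave 0.81 ± 0.81, and the interval includes 0.

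Among proteases tied to the proteasome and to free ubiquitin chains, Usp14 and Usp5 lay on opposite sides of 0, and neither passed. Usp14, which sits on the proteasome and trims ubiquitin from its substrates, had 5.32 in KO IP and 5.65 in KO Input, against 6.00 in WT IP and 5.42 in WT Input. The authors' deposited table gave 0.84 ± 0.61 (adjusted Wald p = 0.591). Usp5, which takes apart unanchored ubiquitin chains, had 4.96 in KO IP and 6.35 in KO Input, against 4.98 in WT IP and 6.46 in WT Input. Its immunoprecipitates were the same to 0.02, and the interaction, by the authors' deposited table, was -0.13 ± 0.59 (Wald test, adjusted p = 0.949). Usp13, the paralogue of Usp5, had no adjusted p and lay further below Input, with 3.10 in KO IP and 6.00 in KO Input, against 2.87 in WT IP and 5.91 in WT Input.

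Of proteases that act on histones, 2 of 8 were tested (Usp22 and Usp3), and of those that act on receptors, TGF-beta signalling or endosomes 2 of 7 (Usp9x and Usp4), and none of the 4 passed. Usp22, the deubiquitinase of the SAGA coactivator complex, had 8.26 in KO IP and 7.41 in KO Input, against 8.43 in WT IP and 7.29 in WT Input. Recovery over Input was seen in both genotypes, with an interaction of 0.30 ± 0.41 by the authors' deposited table (adjusted Wald p = 0.814). Usp3, a histone H2A deubiquitinase, had 6.58 in KO IP and 7.06 in KO Input, against 6.09 in WT IP and 6.93 in WT Input, and -0.40 ± 0.48 by the authors' deposited table (adjusted Wald p = 0.778). Usp9x, a large X-linked protease of MCL1, SMAD4 and other substrates, had 6.96 in KO IP and 5.35 in KO Input, against 7.52 in WT IP and 5.80 in WT Input. Its WT value was higher in both kinds of library, by 0.56 in IP and by 0.45 in Input, which was the largest Input difference of the 21 in size. These largely offset each other in the interaction, 0.13 ± 0.48 by the authors' deposited table (adjusted Wald p = 0.937).

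Usp4, Usp11 and Usp15 are paralogues that act on TGF-beta receptors and other substrates. Usp4 had 5.59 in KO IP and 6.49 in KO Input, against 5.22 in WT IP and 6.21 in WT Input, and an interaction of -0.08 ± 0.59 by the authors' deposited table (adjusted Wald p = 0.963). Usp11 and Usp15 had mean normalized counts of 14.0 and 13.2 and no adjusted p. Their estimates in the authors' deposited table, -1.19 ± 1.09 for Usp11 and -0.85 for Usp15, lie below 0 by about 1 SE. WT minus KO in IP was -1.14 for Usp11 and -0.55 for Usp15.

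**Figure D2:**
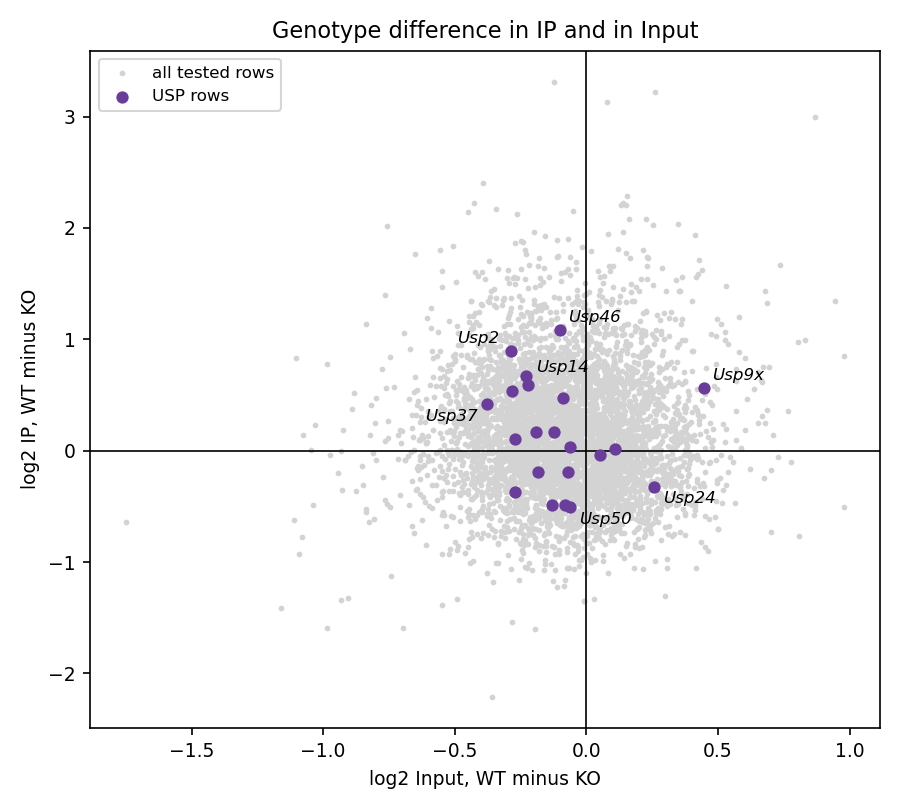
WT minus KO difference of the authors' log2 values in Input (horizontal axis) and in IP (vertical axis) for the 21 tested USP rows (purple) and all 5327 tested rows (grey). The USP rows lie between -0.38 and 0.45 in Input and between -0.50 and 1.08 in IP, and only Usp46 passes 1.

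The remaining tested members lay on both sides of 0 in the authors' deposited table. Of the proteases with roles in NF-kB or innate immune signalling, Usp31 had 0.57 ± 0.42 (Wald test, adjusted p = 0.599), Usp25 0.40 ± 0.42 and Usp48 -0.01 ± 0.47 there. Usp36, a nucleolar protease, had 0.36 ± 0.41 and Usp32, of the Golgi and endosomes, -0.08 ± 0.58 in the authors' deposited table. Usp24 had the lowest interaction of the 21 there, -0.60 ± 0.45 (Wald test, adjusted p = 0.609), and Usp47, which acts on DNA polymerase beta and beta-catenin, had -0.11 ± 0.46. Usp6nl, the Rab GTPase-activating protein, had 7.69 in KO IP and 9.02 in KO Input, against 8.28 in WT IP and 8.80 in WT Input, and 0.82 ± 0.39 by the authors' deposited table (adjusted Wald p = 0.330). Usp50, whose product is predicted to be inactive, had -0.45 ± 0.58 there. Its row lies at chromosome 2, 126709096 to 126709928, on the minus strand inside the span of Usp8 in RefSeq (GRCm38.p6), which does not place Usp50 there. Whether counting used strand is unknown here, and the reads of this stretch are uncertain for Usp50. Usp37 and Usp14 also share 50 and 53 bases at their row ends with Vil1 and Thoc1 on the opposite strand, and the Usp22 row lies in the RefSeq span of Tnfrsf13b.

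In the immunoprecipitates, 1 of 21 members had a WT value at least 1 above the KO value, beside 6.78% of all tested rows, and 0 had one at least 1 below it, beside 0.845%. The WT value was the higher one in 13 of 21, beside 59.7%. The median WT minus KO difference in IP was 0.11 over the members and 0.13 over all tested rows. In Input 0 of 21 differed by 1 upwards, beside 0%, and 0 downwards, beside 0.188%. The WT value was the higher one in 4 of 21, beside 35.6%. Input differences of the members had a median of -0.12 (all tested rows, -0.09), and all 21 were under 0.5 in size. Members without an adjusted p reached larger Input differences, such as 0.66 for Usp38, -0.73 for Usp27x and 0.97 for Usp44. Mean normalized counts were 37.4 for Usp38, 6.71 for Usp27x and 0.399 for Usp44, which had 0 in KO Input. At the counts of Usp27x and Usp44 such a difference rests on few reads. Differences of group values carry no error, and in such bulk samples fewer cells of a type and less RNA per cell cannot be told apart.

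The members differed widely among themselves in recovery over Input. IP exceeded Input for 9 of 21 in KO, beside 55.6% of all tested rows, and for 12 of 21 in WT, beside 59.1%. In KO, 6 of the 21 lay at least 1 above Input, beside 17% of all tested rows, and 5 at least 1 below it, also beside 17%. In WT, 8 lay at least 1 above, beside 28.1%, and 4 at least 1 below, beside 15.7%. The range in KO was from -3.16 for Usp2 to 1.84 for Usp24, and in WT from -1.98 for Usp2 to 2.13 for Usp31. Of the 21, 9 lay above Input in both genotypes (49.7% of all tested rows), 9 below Input in both (35%), and 3, Usp7, Usp14 and Usp37, above it in WT and below it in KO (9.37%). No tested member was below Input in WT and above it in KO (5.89% of all tested rows). None of these differences has a test.

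Usp31, Usp24, Usp9x, Usp12, Usp48 and Usp32 formed the group at least 1 above Input in both genotypes. No share of all tested rows for both genotypes at once is given here. Taken singly, 17% of all tested rows lay at least 1 above Input in KO and 28.1% in WT. For Usp31 the values were 7.81 in KO IP and 6.23 in KO Input, against 8.28 in WT IP and 6.14 in WT Input. For Usp24 they were 7.61 in KO IP and 5.77 in KO Input, against 7.29 in WT IP and 6.03 in WT Input. Usp48 had 7.14 in KO IP and 5.91 in KO Input, against 6.95 in WT IP and 5.73 in WT Input. These 3' UTRs thus lay above Input in KO as well, and that of Usp24 by more than in WT. At the other end, Usp36 had 6.57 in KO IP and 8.02 in KO Input, against 6.74 in WT IP and 7.83 in WT Input, and Usp25 had 7.07 in KO IP and 8.11 in KO Input, against 7.18 in WT IP and 7.83 in WT Input.

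**Figure D3:**
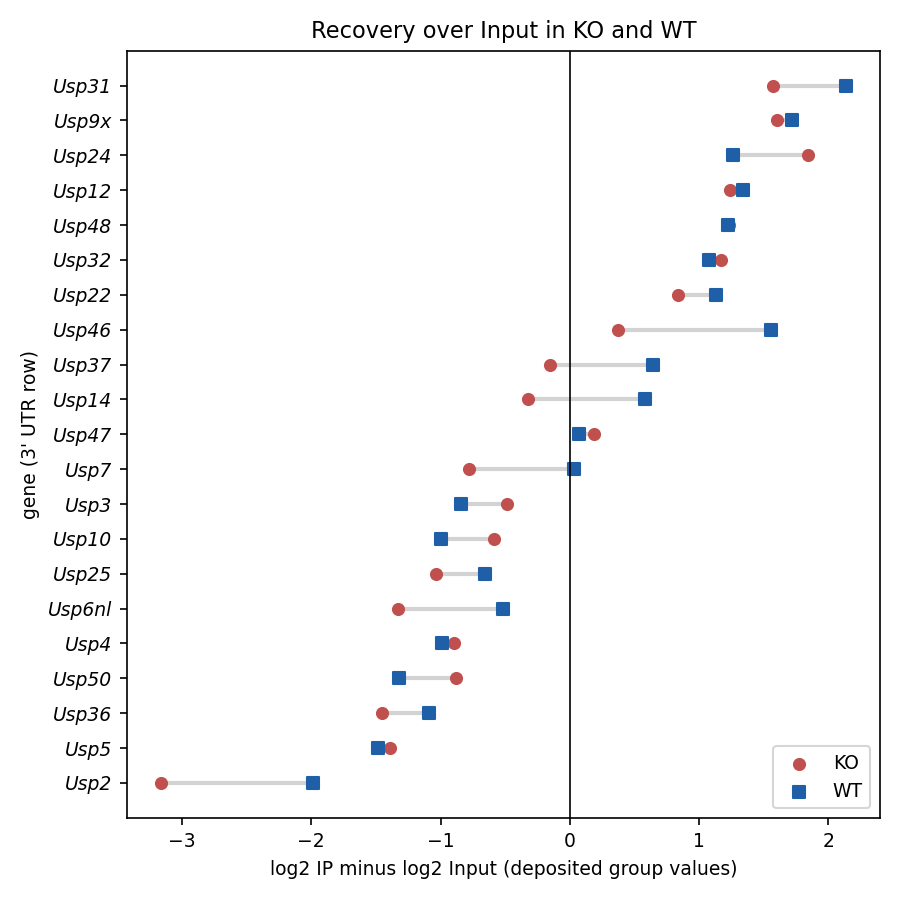
Log2 IP minus log2 Input of the authors' group values for the 21 tested USP rows, with red circles for KO and blue squares for WT, joined by a grey line and sorted by the sum of both. The members spread from -3.16 (Usp2 in KO) to 2.13 (Usp31 in WT), and for most of them the 2 genotypes lie close together compared with that spread.

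The length of the 3' UTR ran along with recovery across the members. The 8 members at least 1 above Input in WT had 3' UTRs of 1968 to 6163 bases, and the 9 below Input in both genotypes had a median of 1217 bases. Across the 21 genes Spearman's correlation of length with IP minus Input was 0.49 in KO and 0.64 in WT, and across all 5327 tested rows it was 0.22 and 0.37. These points share their libraries and normalization, and genes are not independent replicates. Of the 10 members with at least 2000 bases, 7 lay above Input in KO and 8 in WT, beside 64.5% and 72.6% of all tested rows of that length. Of the 11 shorter ones, 2 lay above Input in KO and 4 in WT, beside 48.4% and 48.2%. With the interaction itself the correlation was 0.28 across the members and 0.39 across all tested rows.

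Length did not order every member. Usp6nl with 4648 bases and Usp3 with 3776 bases lay below Input in both genotypes. Usp13, with 4838 bases and no adjusted p, also lay below it in both, with the values given above. Usp32, with 1968 bases, lay above it by 1.17 in KO and by 1.08 in WT.

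**Figure D4:**
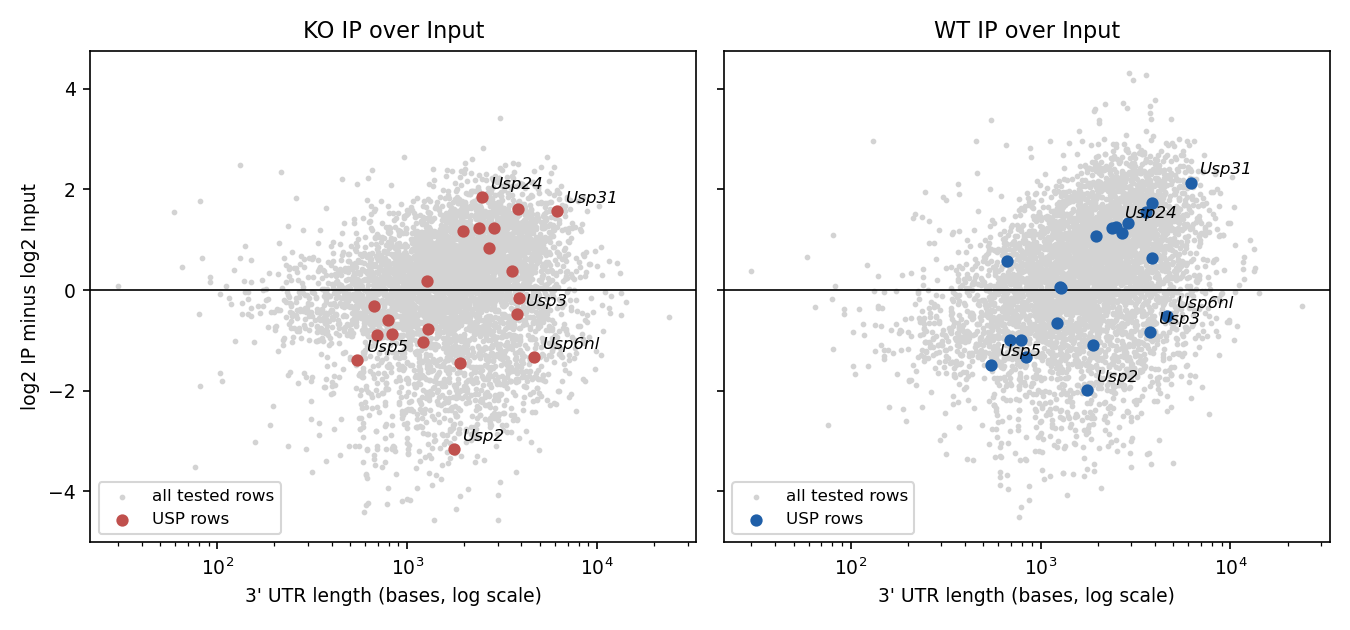
Log2 IP minus log2 Input against 3' UTR length in bases (log scale) in KO (left) and WT (right), for the 21 tested USP rows (coloured) and all tested rows (grey). Long USP 3' UTRs such as Usp31 with 6163 bases lie high and short ones such as Usp5 with 547 bases low, while Usp6nl and Usp3 are long and lie below 0.

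Input levels per length spanned the family widely. Among the 43 members whose mean normalized count reached 10, the normalized count per kilobase of 3' UTR ran from 3.52 to 269 in KO Input and from 3.33 to 220.4 in WT Input. Usp2 was highest, with 269 in KO Input and 220.4 in WT Input. Usp7 followed with 248 in KO Input and 204 in WT Input, and Usp25 with 226 in KO Input and 187 in WT Input. Usp5 had 147 in KO Input and 159 in WT Input, and Usp36 had 137 in KO Input and 120 in WT Input. These 5 held ranks 1 to 5 in both genotypes, but neighbours in the order Usp2, Usp7, Usp25 lie closer to each other than the KO and WT values of each. The lowest were Usp34 with 8.85 in KO Input and 6.41 in WT Input, Usp45 with 6.43 in KO Input and 5.56 in WT Input, and Usp49 with 3.52 in KO Input and 3.33 in WT Input. Of the 5 most abundant, only Usp7 in WT was not below Input in IP, while Usp34, Usp45 and Usp49 were all at least 1 above Input in both genotypes. Other members of low level went both ways. By mean Input level per length, Usp30 (rank 40) had IP minus Input of 0.37 in KO and 0.20 in WT. Usp20 (rank 39) had -0.69 in KO and -0.74 in WT, and Usp31 (rank 38) 1.57 in KO and 2.13 in WT. Usp13 (rank 34) had -2.90 in KO and -3.05 in WT. Input enters both measures, and the level is divided by 3' UTR length, which ran along with recovery, so this is a description only.

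The 28 members with a p and no adjusted p carried wide errors. Their interaction in the authors' deposited table ran from -2.28 to 2.27. Above 0 were 12 of the 28, beside 46.2% of the 11899 rows of the same kind, and 0 had an unadjusted p under 0.05, beside 1.53% of those rows (Wald test, authors' deposited table). Of the 22 whose mean normalized count reached 10, Usp43 had the largest interaction there, 1.53 ± 0.95, with 2.97 in KO IP and 4.75 in KO Input, against 4.29 in WT IP and 4.46 in WT Input. Usp38 had the smallest unadjusted p of the 28, and the authors' deposited table gave it -1.18 ± 0.64 (unadjusted Wald p = 0.0660). Its values were 5.68 in KO IP and 4.58 in KO Input, against 5.18 in WT IP and 5.24 in WT Input, so that it lay above Input in KO and level with it in WT. Usp35 had 4.34 in KO IP and 3.60 in KO Input, against 3.32 in WT IP and 3.99 in WT Input, and Usp45, with a role in the repair nuclease ERCC1's regulation, had 5.63 in KO IP and 4.56 in KO Input, against 6.31 in WT IP and 4.36 in WT Input. In the authors' deposited table they gave -1.31 ± 1.07 and 0.95 ± 0.66, intervals that include 0.

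The other members of the 22 had interactions within 1 of 0 apart from Usp11, described above. They were Usp1, Usp8, Usp13, Usp15, Usp16, Usp18, Usp19, Usp20, Usp21, Usp30, Usp33, Usp34, Usp39, Usp40, Usp42, Usp49 and Usp54. They include Usp8, which acts on endosomal receptors, Usp18, which removes the ubiquitin-like ISG15, and Usp30 of the mitochondrial outer membrane. Usp33, Usp34, Usp45 and Usp49 were the 4 of the 22 at least 1 above Input in both genotypes. The rows of Usp16 and Usp49 share 192 and 93 bases with Cct8 and Tomm6 on the opposite strand. Usp28, Usp27x, Usp53, Usp44, Usp17la and Usp17lc had mean normalized counts under 10. Usp17lb, Usp17ld, Usp26, Usp51 and Usp9y were listed at 0 in all 4 groups, among them rows of only 9 bases (Usp9y), 19 bases (Usp51) and 55 bases (Usp17lb). The Usp17l genes are near-identical copies, so their reads are uncertain in any case.

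Other genes of the ubiquitin system gave 1 call. The list held 69 symbols for deubiquitinases of other families, USP partners, ubiquitin genes and ubiquitin-activating enzymes. Some genes were listed under both an older and a newer symbol, so a symbol without a row need not be a missing gene. Of the 69 symbols, 60 had a row and 33 were tested. Of the 33, 1 rose in WT, 0 fell in WT and 32 did not pass, beside the 2.25% and 0% of all tested rows, and their median interaction was 0.44. The all-row values to read these lists against are 65.1% above 0 and a median of 0.23. Among 15 tested deubiquitinases of other families 10 were above 0 with a median of 0.53, among 14 partners 12 with a median of 0.45, and among 4 ubiquitin and activating-enzyme genes 1 with a median of -0.65. Atxn3, a deubiquitinase of the Josephin family at chromosome 12, 101918901 to 101923106, was the member that rose in WT, with 6.75 in KO IP and 5.84 in KO Input, against 8.04 in WT IP and 5.55 in WT Input. The authors' deposited table gave Atxn3 1.62 ± 0.49 (Wald test, adjusted p = 0.0468). A recomputed Wald test missed the threshold for Atxn3 after subtracting the median over tested rows (1.39, adjusted p = 0.211) or the length trend (1.09, adjusted p = 0.502), and so did adjustment over all rows that have a p (adjusted p = 0.146). Atxn3 still passed over rows whose mean normalized count reached 100 (Wald test, adjusted p = 0.0312). The call also stayed without overlapping rows and at a threshold of 0.10.

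The next members by p did not pass. G3bp1, the stress granule protein that binds Usp10, had 8.45 in KO IP and 9.07 in KO Input, against 9.30 in WT IP and 8.94 in WT Input, and 1.02 ± 0.38 by the authors' deposited table (adjusted Wald p = 0.156). Ubb, a polyubiquitin gene, had 6.15 in KO IP and 6.00 in KO Input, against 5.10 in WT IP and 6.42 in WT Input, and -1.63 ± 0.63 by the authors' deposited table (adjusted Wald p = 0.178). For Fam63b, a deubiquitinase of the MINDY family, the authors' deposited table gave 1.05 ± 0.45 (adjusted Wald p = 0.257), with 8.49 in KO IP and 9.42 in KO Input, against 9.14 in WT IP and 9.06 in WT Input. Atxn7, a SAGA subunit that holds Usp22 in the complex, had 7.31 in KO IP and 8.91 in KO Input, against 7.86 in WT IP and 8.53 in WT Input, and 0.94 ± 0.40 by the authors' deposited table (adjusted Wald p = 0.261).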

How the data were processed

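One deposited table of 20586 rows was used, each a transcript's 3' UTR, named by Ensembl ID and placed on mm10. Bowtie 0.12.9, Bowtie2 2.2.2, DESeq2 (no version) and mm10 are named, without roles, per the submitters' processing notes. How reads were counted, with or without strand, and what became of multiply mapped ones is not stated in those notes or the labels. The authors deposited 1 log2 value per group, a mean normalized count (a signal computed over all libraries), a log2 interaction with its standard error, a Wald score, and p-values with and without adjustment. In the deposited table the score was the interaction over its standard error, the p its two-sided normal value, and the adjusted p its Benjamini-Hochberg value over 5327 rows. The direction was read from the group values (Spearman's correlation 0.998 across tested rows). The back-transformed group values averaged at or below the mean normalized count in all 20586 rows.

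The 8 columns named by sequencing index alone match no sample label and were not used. The planned count fits were therefore not run, and the depth is unknown. Differences of group values were counted at 1 or more on the log2 scale. Alternatives subtracted the median of all tested rows, or a running median over 501 rows ordered by 3' UTR length. They recomputed the Wald p and its adjustment over the tested rows. The Wald test, its adjustment and the length trend were tried on simulated data. The planted differences there were larger than the estimate of any tested member, so the trial does not cover smaller ones. Others used a threshold of 0.10, every row with a p, a mean normalized count of at least 100, or no overlapping rows. Every tested member is named, with the listed ubiquitin genes that passed and the next 4 by smallest p. Members and lists were chosen with earlier results of these data known. All 54 symbols matched RefSeq (GRCm38.p6). No 3' UTR sequence was used here. Software was Python 3.11.15 with scipy 1.17.1, pandas 2.3.3, matplotlib 3.10.9 and numpy 2.4.6.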

Additional observations from a re-analysis of the deposited data

How the results depend on the processing

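The count of 0 USP rows past the threshold stayed at 0 in both directions under all 6 alternatives that could be run. The smallest adjusted p of a member, that of Usp2, was 0.141 in the authors' deposited table (Wald test). By the recomputed Wald test it was 0.412 after subtracting the median over tested rows and 0.490 with the length trend subtracted. Readjusting the authors' Wald p gave 0.414 with every row in the adjustment and 0.0985 over the 2749 rows whose mean normalized count reached 100. The median interaction of the USP rows, 0.13 (all tested rows, 0.23), has no error of its own. It became -0.10 after subtracting the median over tested rows, 0.0334 with the length trend subtracted, 0.0993 without overlapping rows, 0.11 without Usp6nl, -0.0136 over all rows that have a p (all such rows, 0.0522) and 0.40 over rows whose mean normalized count reached 100. In that last setting it lay above the median of all rows, 0.30, and not below it. Interactions near 0 changed sign: Usp9x to -0.10 and Usp12 to -0.13 with the median subtracted, and Usp9x to -0.37, Usp12 to -0.30, Usp22 to -0.0725, Usp5 to 0.12 and Usp4 to 0.0497 with the length trend subtracted, which also moves the zero point. The 1 call of the wider ubiquitin list, Atxn3, became 0 with the median subtracted, with the length trend subtracted and with every row in the adjustment. It stayed at 1 at a threshold of 0.10, without overlapping rows and over rows whose mean normalized count reached 100. Members at least 1 apart in IP between WT and KO went from 1 to 6 upwards and from 0 to 1 downwards at a difference of 0.5, and to 0 upwards with the median subtracted. Members at least 1 below Input went from 5 to 9 in KO and from 4 to 9 in WT at a difference of 0.5. With the median subtracted they went from 5 to 7 in KO and from 4 to 7 in WT. Those at least 1 above Input then stayed at 6 in KO and went from 8 to 4 in WT. For the counts of IP and Input differences in these settings, no share of all tested rows is given here. Those counts describe the settings only. The causes of the changes were not tested beyond the construction of each alternative. No paired analysis was possible because the columns per library carry only sequencing indices and could not be matched to samples. Leaving out each replicate and changing the normalization were not run for the same reason. With 1 value per group, differences of IP and Input have no error, and members under the adjusted count range have standard errors of 0.63 and more.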
